A study of Mus musculus with 24 samples.

Results

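The Zfp-named genes are mouse genes whose name in the deposited counts is Zfp, for zinc finger protein, followed only by a number. They were taken by name from the RNA-seq count table of primary B cells, after removing any ending that begins with a low line (_). Zfp36, which encodes an mRNA decay factor with a different kind of finger, was left out by rule. They were then selected on their measured level: a total of at least 100 counts over the 6 RNA-seq libraries was required. Of 309 such names in a table of 14106 genes, 278 met this minimum and 31 did not. The first names outside were Zfp941 with 95 counts and Zfp57 with 97, and the first inside were Zfp651 with 104 and Zfp112 with 105. Name and total count chose the members, and the group was proposed with results of this contrast known, so counts over the members describe these libraries.

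Most Zfp proteins carry an array of C2H2 fingers, small zinc-holding loops that can read DNA bases in a row. Many also carry a KRAB domain, which recruits the corepressor Trim28 and with it the histone methyltransferase Setdb1, and such proteins are known for silencing retroelements and imprinted genes. Genes of this class often lie side by side in clusters that grew by duplication, and members without KRAB include activators, RNA-binding proteins and ribosome factors.

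The RNA-seq compared activated splenic B cells with and without Spt5, encoded by Supt5, a subunit of the elongation factor DSIF that travels with RNA polymerase II. The 3 WT libraries came from Rosa26ERT2-cre/+ mice and the 3 Spt5-depleted libraries from Supt5hFl/- Rosa26ERT2-cre/+ mice, which have 1 floxed Supt5 allele over a null one, neither of which the labels give for the WT mice. Cells of both groups received IL4/LPS for 28 h and then 2 uM 4-HT (4-hydroxytamoxifen, which switches on the ERT2-fused Cre) for a further 32 h, 60 h of activation in all. The Cre is driven from the ubiquitous Rosa26 locus, so every cell type in the culture could recombine. The labels call the starting cells immature in one field and mature in another (for the depleted group), and do not say whether replicates were separate mice, so p-values cover only library-to-library spread, part of which may be technical. The series holds 24 samples, and the 18 of other assays were not analysed here.

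Library totals were 23340978 to 25649611 counts in WT and 17306549 to 21441575 in the depleted group. Supt5 had 3512 to 4666 counts per WT library and 189 to 314 per depleted library. Xist was abundant in WT only (11367 to 20130 counts, against 18 to 40), and 4 Y-linked genes were present in the depleted libraries only, with at most 2 counts of any of them in a WT library, so sex and genotype cannot be told apart in any value below. The 6 B cell markers summed to 4904 to 4950 CPM (the TMM-normalised share of a library's counts) in WT and 4019 to 4665 CPM in the depleted group. Over all tested genes edgeR called 31.8% higher and 30.6% lower in the depleted group, and these shares stand beside the marker counts that follow. Of 8 tested macrophage and monocyte markers, 5 were higher in the depleted group, with summed levels of 35.0 to 59.8 CPM in WT and 38.8 to 81.4 CPM in depleted libraries. None of 8 tested T and NK cell markers was called by edgeR, with 0 at an unadjusted p under 0.05 as well, and their sums were 19.8 to 23.4 CPM and 8.49 to 26.5 CPM. Dendritic cell markers gave 2 of 3 higher, with sums of 85.4 to 99.7 CPM and 95.8 to 97.5 CPM. Flt3, not called, made up most of these sums (mean 86.7 CPM in WT and 82.1 CPM after depletion). Xcr1 went from a mean of 0.881 to 5.98 CPM, and Zbtb46 from 5.22 to 8.22 CPM. Erythroid markers summed to at most 0.563 CPM in any library. The part of these cells in the results was not tested.

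The Zfp-named genes were on balance higher after Spt5 depletion. Of the 278 members, 142 (51.1%) rose and 40 (14.4%) fell at an adjusted p under 0.05 in edgeR's quasi-likelihood test, fitted and adjusted over all 12024 tested genes. Over all tested genes the same test called 31.8% higher and 30.6% lower, so calls were evenly divided there. In either direction 62.4% of all tested genes were called, and 182 of the 278 members, leaving 96 members not called. The median log2 fold change (depleted over WT) was 0.37 over the members, with quartiles of -0.08 and 0.68 and a range of -2.84 to 1.91, and 199 members lay above 0. The median over all tested genes was 0.0047.

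Most of the shifts were small. At least 2-fold rises were called for 29 members and 2-fold falls for 8, where 9.87% and 7.63% of all tested genes passed these limits. In 154 members every depleted library lay above every WT library and in 48 every depleted library lay below, against 34.2% and 33.3% of all tested genes (67.5% in either direction). All 278 members entered the test. In 7 of them 1 group alone had at least 10 counts in every library, and 5 of those 7 fell, each at least 2-fold. These 5 are among the 8 falls of at least 2-fold, and could enter the test through WT, where they are high. CPM is a share of a library, and in bulk RNA fewer cells of a type and less RNA per cell cannot be told apart. Scaling by library totals alone, without TMM, gave 170 members higher and 25 lower (87.2% of calls higher, against 78.0% with TMM), and moved the median of all tested genes to 0.16 and that of the members to 0.53. The share of calls higher over all tested genes went from 50.9% to 64.8% with that scaling.

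The summed level of the members moved the same way. It was 5534, 5458 and 5143 CPM in WT replicates 1 to 3 and 6406, 6252 and 6569 CPM in Spt5-depleted replicates 1 to 3. The lowest depleted library was above the highest WT library. The median member stood at 8.30, 8.16 and 7.58 CPM in the WT libraries and at 11.0, 10.0 and 10.4 CPM in the depleted libraries, again without overlap. In each depleted library 192, 193 and 205 of the 278 members were above the WT mean, while each WT library had 140, 170 and 105 members above the mean of the other 2 WT libraries. WT replicate 3 was thus the lowest of its group in all 3 measures.

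**Figure D1:**
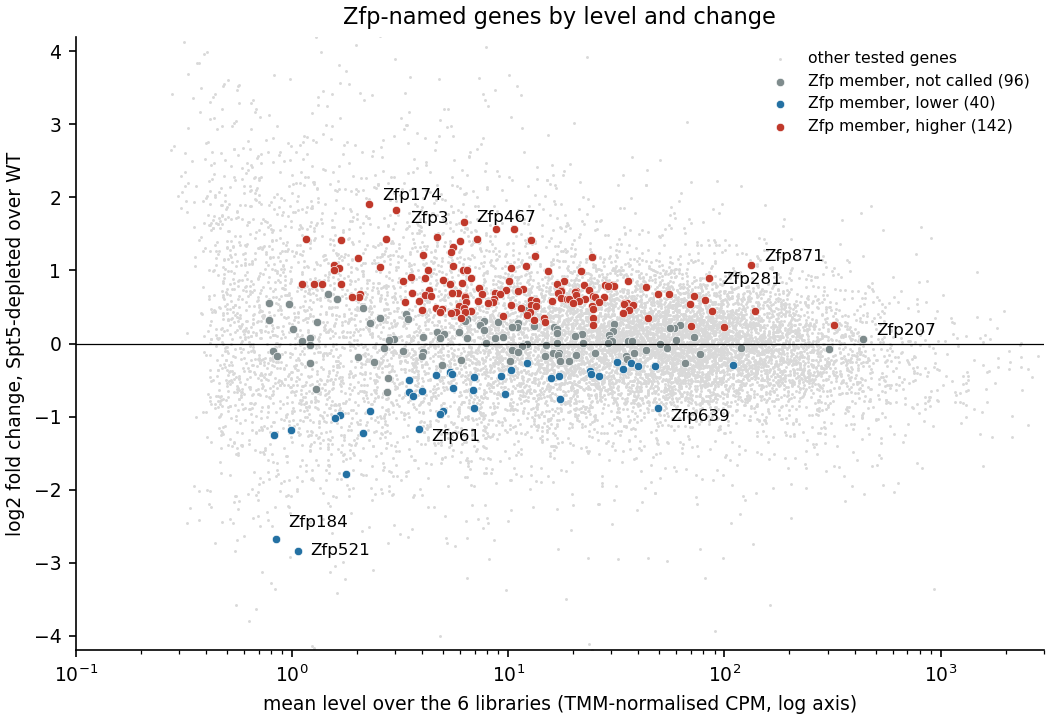
Log2 fold change (Spt5-depleted over WT, vertical axis) against mean level over the 6 libraries (TMM-normalised CPM, log axis) for 278 Zfp-named genes, coloured by call, and for the other tested genes in grey. The red points (142 higher) lie along most of the level axis while the blue points (40 lower) thin out to the right; 44 other genes lie outside the plotted range.

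The share of members that rose was highest between 2 and 50 CPM, and the share that fell was smaller in each higher band of level. Among the 31 members with a mean under 2 CPM, 10 rose (32.3%) and 7 fell (22.6%), close to all tested genes of that level (31.8% higher and 20.2% lower). Of these 7 falls, 5 are of members with at least 10 counts in every library of WT alone. They could enter the test through the group where they are high, so this share of falls is a description. Among 110 members at 2 to 10 CPM, 60 rose (54.5%) and 18 fell (16.4%), where the background was 33.5% and 27.7%. Among 113 members at 10 to 50 CPM, 61 rose (54.0%) and 14 fell (12.4%), beside 33.9% and 30.1% of all tested genes.

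The 24 members at 50 CPM and over held 11 rises (45.8%) and 1 fall (4.17%), while all tested genes of this level went 29.0% higher and 36.6% lower. The single fall was Zfp91. Medians of the log2 fold change by band were 0.30, 0.44, 0.36 and 0.22 from the lowest to the highest level, beside 0.17, 0.07, 0.03 and -0.05 for all tested genes of the same bands. The count minimum takes out the least abundant names, and low counts limit what can be called, so the band under 2 CPM is the least certain. Its 10 rises became 6 without Spt5-depleted replicate 1 and 5 without WT replicate 3. The 14 falls at 10 to 50 CPM became 9 without Spt5-depleted replicate 2 and 6 with library totals alone. The 1 fall at 50 CPM and over became 0 without Spt5-depleted replicate 1 or with library totals alone, and 2 without Spt5-depleted replicate 3, WT replicate 2 or WT replicate 3. Shares were not tested between bands.

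Of the 278 members, 16 carry the ending IMP_OVL after their symbol, whose meaning is not given in the sources used here and which is called the overlap suffix below. Of these 16, 6 rose and 4 fell, with a median log2 fold change of -0.01. All 1714 tested genes with the suffix went 32.9% higher and 27.7% lower. Of the 262 members without it, 136 rose and 36 fell, with a median of 0.40, where all 10310 tested genes without it went 31.6% higher and 31.1% lower.

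The 6 suffixed members that rose were Zfp783, Zfp708, Zfp646, Zfp85, Zfp687 and Zfp27, and the 4 that fell were Zfp653, Zfp956, Zfp511 and Zfp91. Suffixed members were found in every band of level: they numbered 2 of 31, 6 of 110, 6 of 113 and 2 of 24 members from the lowest to the highest band. Within 2 to 10 CPM, 2 suffixed members rose and 2 fell, beside 36.2% and 22.1% of all tested suffixed genes of that level. Of 104 members without the suffix there, 58 rose and 16 fell, beside 33.1% and 28.6% of all tested genes without it. Within 10 to 50 CPM, 3 suffixed members rose and 1 fell (all suffixed genes: 33.7% and 30.8%). Of 107 without it, 58 rose and 13 fell (all genes without it: 34.0% and 29.9%). At 50 CPM and over no suffixed member rose and 1 fell (all suffixed genes: 27.5% and 35.1%). Of 22 without the suffix, 11 rose and 0 fell (all genes without it: 29.3% and 36.9%). With 16 suffixed members, 1 gene is a large step in any of these shares, and the difference between the suffix groups was not tested.

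**Figure D2:**
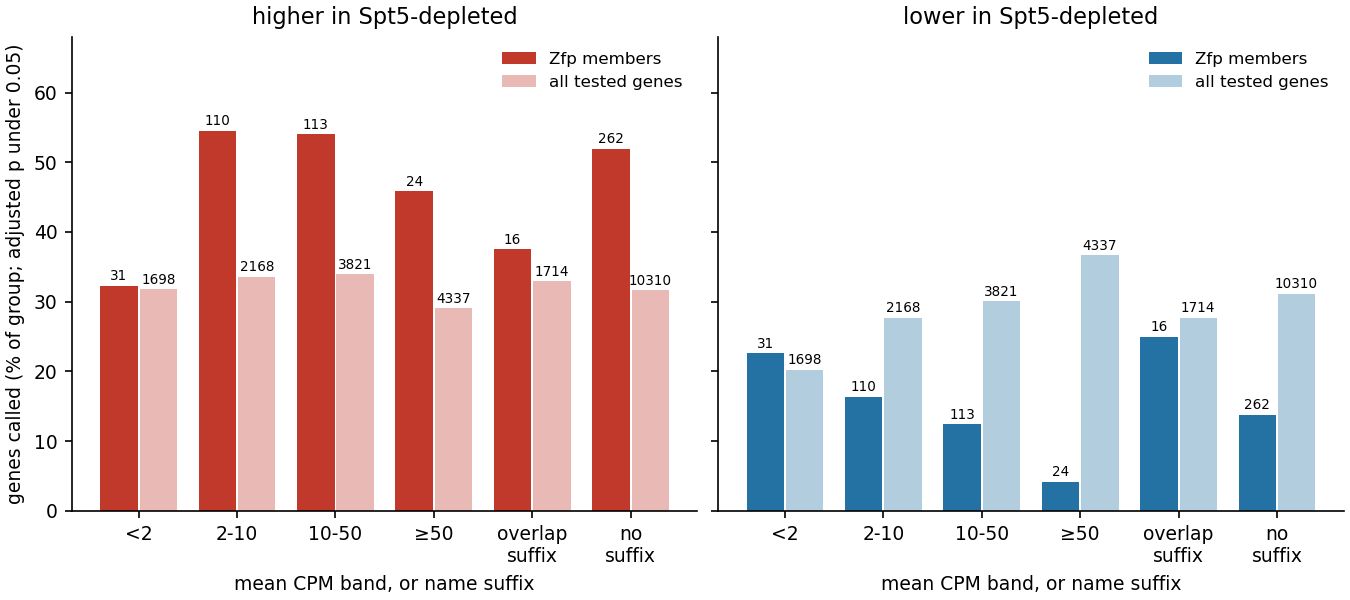
Percent of genes called higher (left) and lower (right) after Spt5 depletion, for Zfp members (solid bars) and all tested genes (pale bars), in 4 bands of mean CPM and by overlap suffix. Members exceed all tested genes in the share called higher in the 3 bands from 2 CPM upward (54.5%, 54.0% and 45.8%), and in the share called lower they are under all tested genes in the same bands.

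The largest rises among members with a mean of at least 2 CPM came from genes of low to moderate level. Only called members whose groups did not overlap could be chosen. Zfp174, Zfp3 and Zfp229 had WT means of 0.959, 1.33 and 1.47 CPM. They reached the 2 CPM minimum through the depleted group, where they are high, so their place among the largest rises is a description. Zfp174, which encodes a SCAN-domain zinc finger protein, stood at 1.14, 1.00 and 0.741 CPM in WT and at 3.18, 3.51 and 4.11 CPM in the depleted libraries. Its depleted libraries were all above its WT libraries (3.76-fold, log2 fold change 1.91, SE 0.24, edgeR adjusted p = 8.43e-06). Zfp3 had 1.22, 1.32 and 1.44 CPM in WT and 4.08, 5.06 and 4.98 CPM after depletion. The groups of Zfp3 did not overlap either, as the choice required (3.54-fold, log2 fold change 1.82, SE 0.21, edgeR adjusted p = 2.88e-06).

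Zfp467, known as a regulator of the choice between bone-forming and fat cells, had 2.95, 2.95 and 3.05 CPM in WT and 11.1, 8.90 and 8.52 CPM after depletion. The WT libraries of Zfp467 were nearly equal and the depleted ones all higher (log2 fold change 1.67, SE 0.16, edgeR adjusted p = 6.50e-07). Zfp933 had 6.19, 5.00 and 4.90 CPM in WT and 18.0, 14.3 and 15.7 CPM after depletion, with a log2 fold change of 1.57 (SE 0.14). Zfp867 reached the same log2 fold change of 1.57 (SE 0.15), from a mean of 4.41 ± 0.671 CPM to 13.1 ± 1.53 CPM (SD, n = 3). The remaining 3 of the 8 largest rises were Zfp97 (1.46), Zfp229 (1.44) and Zfp41 (1.43, from 3.91 ± 0.132 to 10.5 ± 0.280 CPM), whose groups, as the choice of these genes required, did not overlap. Leaving out any 1 library ended none of these 8 calls.

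At a mean of at least 2 CPM, the largest falls were smaller than the largest rises. This order depends on the minimum: over all members the log2 fold changes ran from -2.84 to 1.91, and falls of greater fold lay under 2 CPM. Here too only called members whose groups did not overlap could be chosen. Zfp750, a regulator of epidermal differentiation, had 2.86, 2.64 and 3.46 CPM in WT and 1.12, 1.55 and 1.17 CPM after depletion. All its depleted libraries were below its WT libraries (2.33-fold lower, log2 fold change -1.22, SE 0.24, edgeR adjusted p = 0.000413). Zfp61 had 5.05, 5.95 and 5.02 CPM in WT and 1.95, 2.39 and 2.73 CPM after depletion. Its groups did not overlap, as the choice required (2.25-fold lower, log2 fold change -1.17, SE 0.19, edgeR adjusted p = 8.52e-05).

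Zfp653, whose name has the overlap suffix, had 6.06, 5.86 and 7.20 CPM in WT and 3.52, 3.33 and 3.03 CPM after depletion (log2 fold change -0.96, SE 0.17). Zfp639 was the most abundant of the largest falls, at 59.6, 64.6 and 68 CPM in WT and 34.7, 37.3 and 32.0 CPM after depletion (log2 fold change -0.89, SE 0.09, edgeR adjusted p = 1.66e-06). Every depleted library of these genes was below every WT library, as their choice required. Zfp692 (-0.93), Zfp956 (-0.88, with the overlap suffix) and Zfp414 (-0.77) also fell. The fall of Zfp691 (log2 fold change -0.92, SE 0.28, edgeR adjusted p = 0.0108) was the weakest of the 8. Without Spt5-depleted replicate 3, Zfp691 gave a log2 fold change of -0.67 and an edgeR adjusted p of 0.0701.

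Under 2 CPM, 5 of 31 members were called at least 2-fold higher and 6 at least 2-fold lower. Of all 1698 tested genes of this level, 460 and 264 were. The rises were led by Zfp629 (log2 fold change 1.43) and Zfp316 (1.42). Some falls were of greater fold than that of Zfp750, and genes of both directions are named here because their values were seen. All of these greater falls are among the 7 members with at least 10 counts in every library of 1 group alone, here WT. They could thus enter the test through the group where they are high, and their falls are given as a description. Zfp521, an inhibitor of the early B cell factor Ebf1, had 42, 44 and 45 counts in WT and 3, 9 and 4 after depletion (7.17-fold lower, log2 fold change -2.84, SE 0.37). Zfp184 had 33, 29 and 41 counts in WT and 4, 5 and 5 after depletion (log2 fold change -2.68, SE 0.36). Zfp9 had 50, 69 and 75 counts in WT and 9, 23 and 18 after depletion (log2 fold change -1.79, SE 0.29). Zfp2 had 22, 29 and 30 counts in WT and 12, 7 and 11 after depletion (log2 fold change -1.25, SE 0.35). In all of these genes the groups did not overlap, and the depleted counts are so low that these folds are imprecise.

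The 5 most abundant members changed little or rose. Zfp207, a spindle protein that binds the checkpoint factor Bub3, had 459, 425 and 406 CPM in WT and 466, 432 and 448 CPM after depletion. Its groups overlapped and it was not called (log2 fold change 0.06, SE 0.08, edgeR adjusted p = 0.539). Zfp706 had 312, 272 and 296 CPM in WT and 362, 360 and 332 CPM after depletion. Zfp706 rose by a small step (log2 fold change 0.26, SE 0.09, edgeR adjusted p = 0.0165), and lost its call without Spt5-depleted replicate 1 (adjusted p = 0.0673), Spt5-depleted replicate 2 (adjusted p = 0.0710) or WT replicate 2 (adjusted p = 0.0715).

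Zfp106, an RNA-binding protein needed by motor neurons and muscle, had 364, 293 and 277 CPM in WT and 280, 290 and 317 CPM after depletion. Its groups overlapped (log2 fold change -0.07, SE 0.10, edgeR adjusted p = 0.555). Zfp362 had 114, 124 and 114 CPM in WT and 161, 155 and 165 CPM after depletion, with no overlap (log2 fold change 0.45, SE 0.08, edgeR adjusted p = 0.000247). Zfp871 had 98.7, 90.6 and 68 CPM in WT and 173, 181 and 188 CPM after depletion. Zfp871 was thus 2.11-fold higher (log2 fold change 1.08, SE 0.12, edgeR adjusted p = 3.53e-06), the largest rise among the 24 members at 50 CPM and over.

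**Figure D3:**
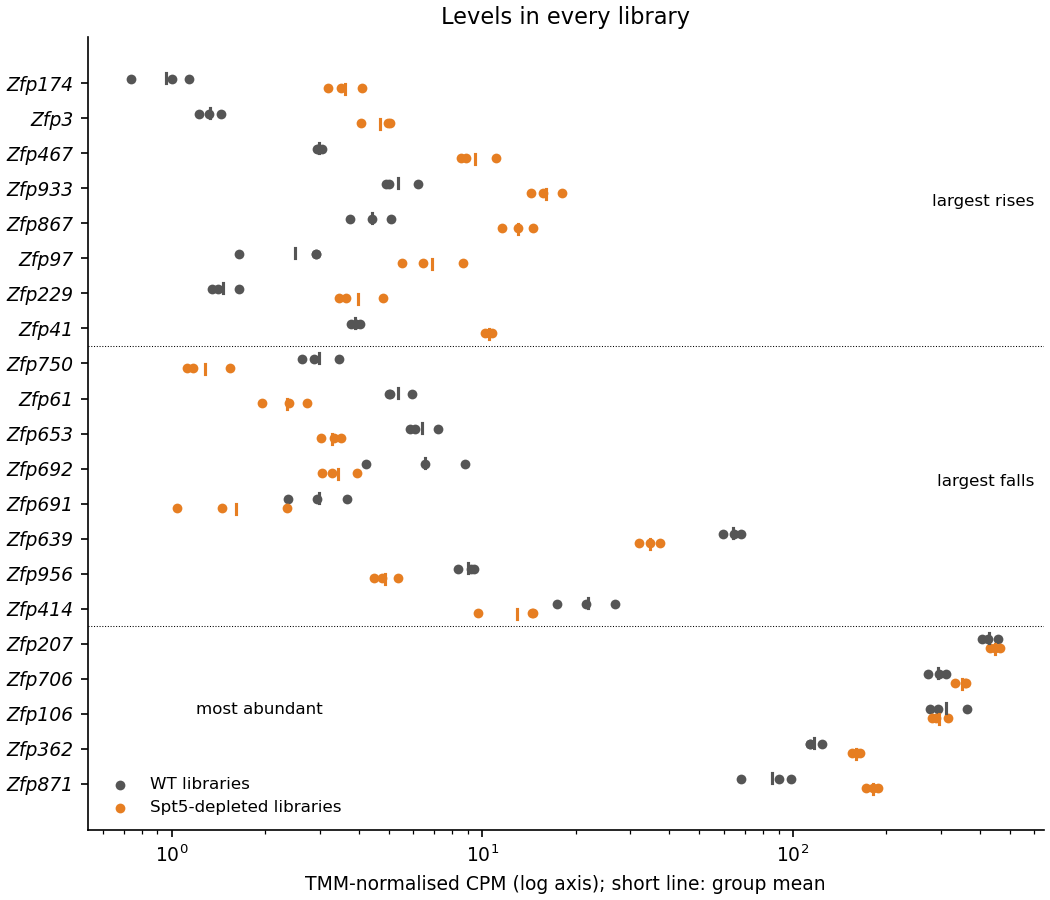
TMM-normalised CPM (log axis) in each of the 3 WT (grey) and 3 Spt5-depleted (orange) libraries for the 8 largest rises, the 8 largest falls and the 5 most abundant members, with a short line at each group mean. The 16 largest changes were chosen among genes whose groups do not overlap, such as Zfp174 (0.741 to 1.14 against 3.18 to 4.11 CPM); of the 5 most abundant, Zfp207 and Zfp106 overlap.

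Promoter sequences of members are shown to give the start regions of genes with some of the largest changes. RefSeq (GRCm38.p6) holds a promoter entry for 230 of the 278 members, 282 windows in all, and the 250 bases before each start were searched on both strands. The motifs were chosen with the data known. They were the core bound by ETS factors, CCGGAA, then the CCAAT box, then the GC box, which reads GGGCGG, and the TATA box, which reads TATAAA. A core motif of NRF1 reads TGCGCA, one of YY1 reads ATGGCG and one of Kaiso reads TCGCGA. No motif holds another whole. For the 2 largest rises and for Zfp61 and Zfp653 among the falls, the 250 bases are given 5′ to 3′ on the gene's strand, with motif matches in capitals. The Zfp174 window is chr16:3846973-3847222 (+), that of Zfp3 chr11:70764197-70764446 (+), that of Zfp61 chr7:24299550-24299799 (-) and that of Zfp653 chr9:22071377-22071626 (-).
Zfp174: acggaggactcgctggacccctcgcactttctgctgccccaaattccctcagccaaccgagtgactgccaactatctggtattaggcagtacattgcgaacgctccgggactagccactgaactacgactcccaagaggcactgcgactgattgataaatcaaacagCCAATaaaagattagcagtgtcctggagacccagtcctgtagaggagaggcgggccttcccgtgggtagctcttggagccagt
Zfp3: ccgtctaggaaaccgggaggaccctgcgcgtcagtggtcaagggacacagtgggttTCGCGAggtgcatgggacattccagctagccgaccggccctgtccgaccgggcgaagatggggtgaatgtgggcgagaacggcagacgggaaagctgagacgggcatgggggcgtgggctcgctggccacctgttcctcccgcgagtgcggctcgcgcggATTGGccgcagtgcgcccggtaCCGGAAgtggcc
Zfp61: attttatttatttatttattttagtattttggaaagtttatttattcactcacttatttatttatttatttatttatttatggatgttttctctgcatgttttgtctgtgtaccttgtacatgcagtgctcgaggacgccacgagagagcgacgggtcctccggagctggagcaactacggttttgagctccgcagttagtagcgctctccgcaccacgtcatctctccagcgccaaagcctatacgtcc
Zfp653: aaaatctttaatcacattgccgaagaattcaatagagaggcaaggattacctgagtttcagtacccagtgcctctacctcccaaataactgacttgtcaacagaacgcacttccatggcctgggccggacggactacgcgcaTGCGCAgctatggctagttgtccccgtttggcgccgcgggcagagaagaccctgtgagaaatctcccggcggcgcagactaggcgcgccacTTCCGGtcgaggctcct

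Zfp174 holds a CCAAT match, Zfp3 a CCAAT, an ETS core and a Kaiso core match, Zfp653 an ETS core and an NRF1 core match, and Zfp61 none of the 7 motifs. The ETS core was in 32.6% of members' windows, 22.4% of tested genes' windows and 12.0% of all 32851 windows of the same length. CCAAT was in 45.4% of members' windows, 35.5% of tested genes' and 33.8% of all. The GC box was less frequent in members (44.3%) than in tested genes (57.3%), and was in 32.7% of all windows. The median number of CpG was 12 in members' windows, 16 in tested genes' and 6 in all.

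The other 4 motifs were in 7.09% (TATA box), 9.57% (NRF1 core), 9.57% (YY1 core) and 4.26% (Kaiso core) of members' windows, and in 6.32%, 11.7%, 8.99% and 4.09% of tested genes' windows. In all windows they were in 12.4%, 6.43%, 5.73% and 2.08%. Among members, the ETS core did not follow the direction of change: it was in 32.7% of windows of members that rose, 33.3% of those that fell and 32.3% of those not called. The GC box gave 44.2%, 44.4% and 44.4% in the same order, and CCAAT 42.9%, 38.9% and 51.5%. A match is a description of these letters and no evidence of a bound factor.

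Members with a described role were taken in 4 lists, whose counts stand beside 31.8% higher and 30.6% lower over all tested genes, with a median of 0.0047. Of the 7 tested immune and B cell regulators, 2 rose (28.6%) and 4 fell (57.1%), with a median log2 fold change of -0.29. Zfp318, which sets the splicing choice between IgM and IgD in B cells, had 61.7, 64.2 and 44.1 CPM in WT and 79.2, 80.6 and 87.3 CPM after depletion. All depleted libraries of Zfp318 were above all WT libraries, of which WT replicate 3 was the lowest (log2 fold change 0.54, SE 0.12, edgeR adjusted p = 0.00181).

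Zfp281, listed here although best known as a transcription factor of pluripotent cells, had 60.5, 58.8 and 59.2 CPM in WT and 110, 110 and 112 CPM after depletion. Its replicates were within a few CPM of each other in both groups (log2 fold change 0.90, SE 0.08, edgeR adjusted p = 2.97e-07). Zfp91, a ubiquitin ligase of the non-canonical NF-kB pathway, had 120, 117 and 126 CPM in WT and 92.2, 98.7 and 106 CPM after depletion, a small fall without overlap (log2 fold change -0.29, SE 0.09, edgeR adjusted p = 0.00813). The fall of Zfp91 was lost without Spt5-depleted replicate 1 (adjusted p = 0.0543). Zfp609, a partner of the cohesin loader Nipbl with a described role in Rag gene expression in thymocytes, had 43.4, 43.9 and 45.0 CPM in WT and 34.1, 34.3 and 38.8 CPM after depletion (log2 fold change -0.30, SE 0.09).

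Zfp335, needed for T cell maturation, fell as well (log2 fold change -0.31, SE 0.09, edgeR adjusted p = 0.00881), and lost its call without Spt5-depleted replicate 2 (adjusted p = 0.0561). Zfp521, described above, was the fourth fall, with at least 10 counts in every library in WT alone. Zfp608, the close relative of Zfp609, was not called (log2 fold change -0.06, SE 0.11). With library totals alone, the calls of Zfp91, Zfp335 and Zfp609 were lost (log2 fold changes of -0.13, -0.15 and -0.14) and Zfp608 changed sign to 0.10, so these small falls rest on the scaling.

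Of the 11 tested RNA, ribosome and spindle proteins, 3 rose (27.3%, beside 31.8% of all tested genes) and 2 fell (18.2%, beside 30.6%), with a median log2 fold change of -0.07. The 3 that rose were Zfp346 (0.80, SE 0.11), which binds double-stranded RNA, Zfp830 (0.48, SE 0.11), a splicing-associated protein, and Zfp473 (0.45, SE 0.14), which acts in 3′ processing of histone mRNA. Zfp473 had 5.64, 5.23 and 6.26 CPM in WT and 7.31, 8.20 and 7.83 CPM after depletion, without overlap. The call of Zfp473 was lost without Spt5-depleted replicate 2 (edgeR adjusted p = 0.0553) or WT replicate 2 (edgeR adjusted p = 0.0509).

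Zfp598, the ligase that marks collided ribosomes, had 35.7, 39.9 and 38.9 CPM in WT and 29.3, 29.5 and 30.8 CPM after depletion, and fell without overlap (log2 fold change -0.35, SE 0.09, edgeR adjusted p = 0.00385). Zfp143, an activator of small nuclear RNA genes that is also found at chromatin loop anchors, had 38.0, 39.4 and 43.7 CPM in WT and 35.5, 33.0 and 32.4 CPM after depletion. Its groups did not overlap (log2 fold change -0.26, SE 0.09, edgeR adjusted p = 0.0244), but the call was lost without Spt5-depleted replicate 2 (adjusted p = 0.0799), Spt5-depleted replicate 3 (adjusted p = 0.0876) or WT replicate 3 (adjusted p = 0.0593). With library totals alone both falls lost their calls (-0.19 for Zfp598 and -0.11 for Zfp143).

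The ribosome biogenesis factors Zfp622 and Zfp593 were not called. Zfp622 had 48.4, 48.5 and 59.3 CPM in WT and 60.2, 63.0 and 57.3 CPM after depletion, with WT replicate 3 inside the depleted range. Without that replicate Zfp622 gave a log2 fold change of 0.31 (edgeR adjusted p = 0.00582), against 0.21 (adjusted p = 0.0789) with it, and with library totals alone it was called at 0.37 (adjusted p = 0.00476). Zfp593 had 16.6, 15.9 and 21.4 CPM in WT and 17.2, 14.3 and 16.9 CPM after depletion (log2 fold change -0.16, SE 0.13), with overlap, and its sign turned with library totals alone (0.0030). Zfp326, of the complex that links splicing to elongation, had 17.9, 17.5 and 21.0 CPM in WT and 15.2, 16.8 and 15.7 CPM after depletion. Its groups did not overlap, yet its edgeR adjusted p was 0.0730 (log2 fold change -0.24, SE 0.11). Zfp330 was not called (-0.13, SE 0.11), and with library totals alone its sign turned (0.02).

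Of the 14 tested chromatin and sequence-specific regulators without KRAB, 8 rose (57.1%, beside 31.8% of all tested genes) and 2 fell (14.3%, beside 30.6%), with a median log2 fold change of 0.25. Zfp148, which binds GC-rich promoters, had 80.4, 76.4 and 65.0 CPM in WT and 102, 99.4 and 100 CPM after depletion, with all depleted libraries higher (log2 fold change 0.44, SE 0.09, edgeR adjusted p = 0.00076). Zfp217, a cofactor of CtBP and Kdm1a complexes, had 71.1, 60.7 and 62.1 CPM in WT and 95.4, 93.3 and 104 CPM after depletion, also without overlap (log2 fold change 0.59, SE 0.09, edgeR adjusted p = 5.44e-05). The other rises were Zfp740 (0.66), Zfp687 (0.59), Zfp516 (0.43), Zfp644 (0.41), Zfp384 (0.24) and Zfp592 (0.23).

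The 2 falls were Zfp451, a SUMO ligase (-0.37, SE 0.09), and Zfp64 (-0.25, SE 0.10), and both lost their calls with library totals alone (-0.21 and -0.09). The smaller of these steps depended on single libraries. Leaving out 1 library at a time took edgeR's adjusted p of Zfp516 up to 0.178, Zfp592 to 0.225, Zfp384 to 0.0963 and Zfp64 to 0.229, each losing its call in 3 or 4 of the 6 fits. DESeq2's Wald test called neither Zfp516 (adjusted p = 0.0825) nor Zfp592 (adjusted p = 0.0555). Zfp592 was also not called by limma-voom (adjusted p = 0.0540), with DESeq2's size factors in edgeR (adjusted p = 0.0535) or with no filter (adjusted p = 0.0591). In turn, Zfp292 (-0.26, not called with all 6 libraries) was called lower without WT replicate 3 (adjusted p = 0.00327) or Spt5-depleted replicate 3 (adjusted p = 0.0424). Zfp219, Zfp410 and Zfp827 were not called (0.07, 0.03 and 0.26), and Zfp827 was called higher with library totals alone (0.42, adjusted p = 0.0186).

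Of the 5 tested silencers of retroelements and imprinted genes, 2 rose and 0 fell, beside 31.8% and 30.6% of all tested genes, with a median log2 fold change of 0.08. No test of the list was made, and at an unadjusted p under 0.05 the same number, 2, passed. Zfp445, a KRAB protein that maintains imprints, had 30.9, 33.1 and 31.8 CPM in WT and 51.3, 53.0 and 58.9 CPM after depletion. Its groups were far apart relative to their spread (log2 fold change 0.77, SE 0.09, edgeR adjusted p = 5.00e-06). Zfp809, which silences murine leukaemia viruses through their primer binding site, had 22.5, 26.8 and 17.5 CPM in WT and 21.2, 19.9 and 25.9 CPM after depletion. The groups of Zfp809 overlapped fully (log2 fold change 0.01, SE 0.15, edgeR adjusted p = 0.970).

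Zfp708, with the overlap suffix, had 31, 33 and 20 counts in WT and 59, 36 and 34 after depletion, and its CPM groups overlapped. Its rise (log2 fold change 0.81, SE 0.34, edgeR adjusted p = 0.0487) was lost without Spt5-depleted replicate 1 (0.39, adjusted p = 0.331), WT replicate 1 (adjusted p = 0.0726) or WT replicate 3 (adjusted p = 0.160), and was not called by DESeq2 (adjusted p = 0.0634). Zfp568 (0.08) and Zfp932 (0.0012) were not called.

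The partners that KRAB proteins recruit are no members and were taken as a separate list. Of 22 corepressor genes, all tested, 0 rose, 12 fell and 10 were not called, beside 31.8% higher and 30.6% lower over all tested genes. Their median log2 fold change was -0.27, and 3 lay above 0, while 1 had an unadjusted p under 0.05 without being called. Trim28, the scaffold that KRAB domains bind, had 403, 347 and 413 CPM in WT and 267, 278 and 268 CPM after depletion (log2 fold change -0.52, SE 0.09, edgeR adjusted p = 0.000137). Setdb1, the H3K9 methyltransferase, had 142, 123 and 137 CPM in WT and 99.1, 107 and 110 CPM after depletion (log2 fold change -0.34, SE 0.09, edgeR adjusted p = 0.00343). The groups of both genes did not overlap. The smallest p-values of the list were those of Rbbp7 (-0.61, SE 0.08) and Dnmt3a (-0.69, SE 0.10), a histone-binding subunit and a DNA methyltransferase. With library totals alone the call of Setdb1 was lost (-0.18, adjusted p = 0.0943).

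**Figure D4:**
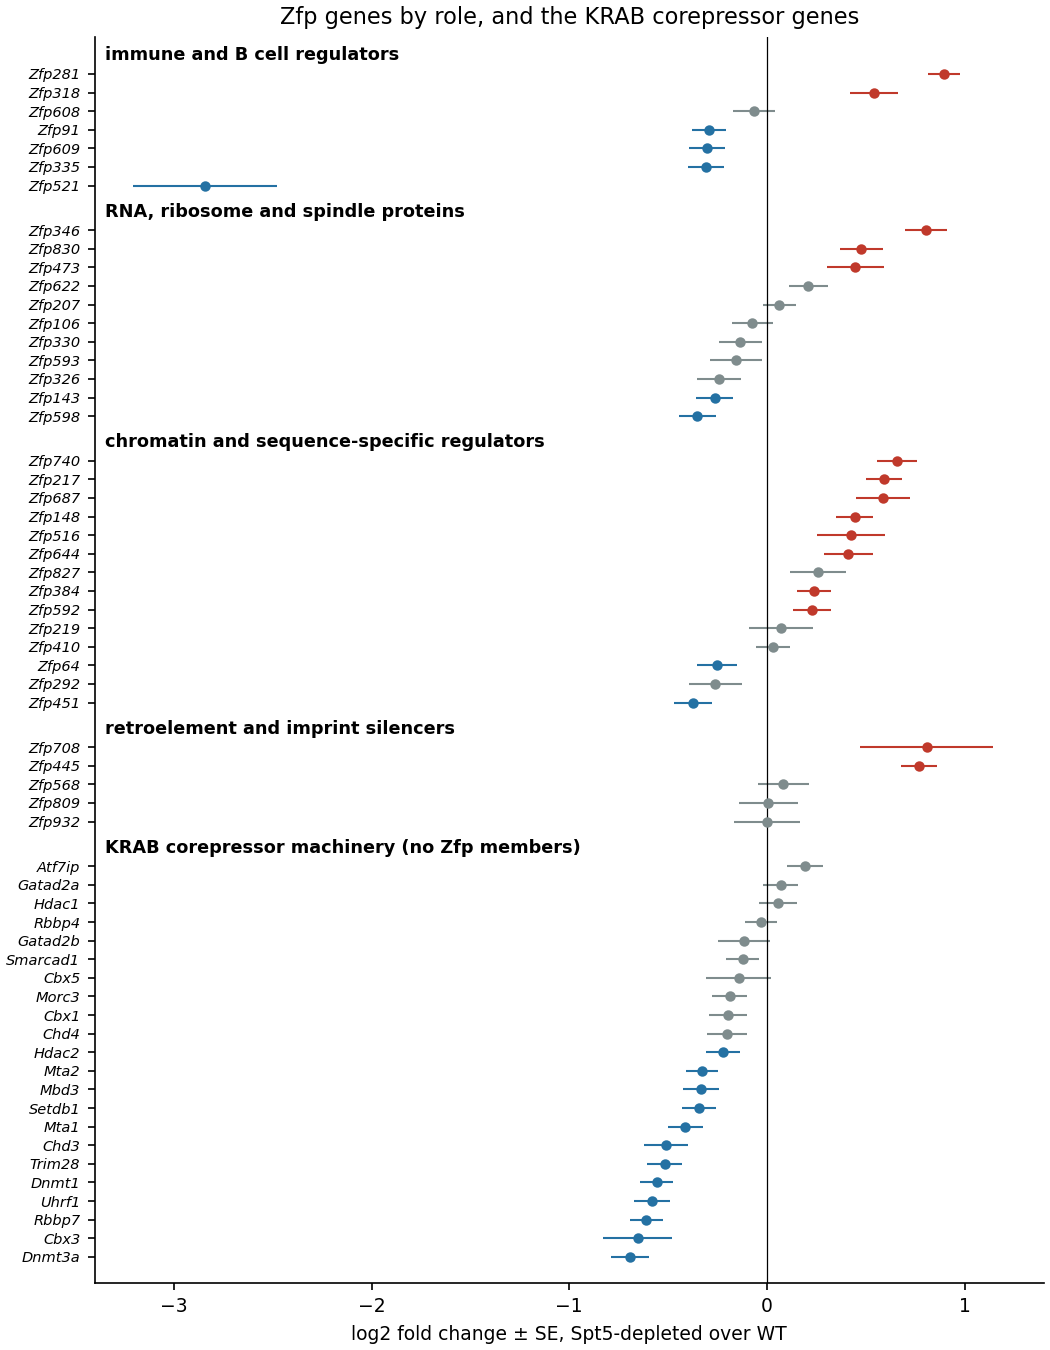
Log2 fold change (Spt5-depleted over WT) with its SE for the tested genes of the 4 Zfp lists and of the KRAB corepressor list, coloured red for higher, blue for lower and grey for not called. The corepressor genes run from -0.69 (Dnmt3a) to 0.19 (Atf7ip), and Zfp521 at -2.84 stands apart from the other listed Zfp genes.

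Zinc finger genes under other names gave varied counts, beside 31.8% higher and 30.6% lower over all tested genes. Of 17 tested Zkscan and Zscan genes, whose proteins carry SCAN domains, 9 rose and 0 fell, with a median log2 fold change of 0.39. Of 37 Zbtb genes, which pair fingers with a BTB domain, 19 rose and 4 fell (median 0.25). Of 20 Klf and Sp genes 6 rose and 5 fell (median -0.04), and of 18 Zc3h genes, whose CCCH fingers bind RNA, 4 rose and 5 fell (median 0.02). None of these families was tested against the Zfp members.

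Members were also grouped by whether they lie next to each other. In the protein-coding gene order of RefSeq's GRCm38.p6 annotation, 275 members were matched by symbol and 3 by synonym, and 277 could be placed. With no member directly beside them stood 143 members, of which 65 rose and 25 fell (median log2 fold change 0.26). Over all 278 members 51.1% rose and 14.4% fell, and over all tested genes 31.8% and 30.6%. In 24 runs of 2 stood 48 members, of which 26 rose and 7 fell (median 0.39), and in 20 runs of 3 or more stood 86 members, of which 50 rose and 8 fell (median 0.50). Of the 20 longer runs, 15 held a rise and no fall, 3 held both, 1 held falls and no rise, and 1 held no call, and in 4 runs every member rose. Of the 24 runs of 2, both members rose in 8. Whether neighbours share a direction more than other members was not tested.

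The longest run, 13 genes from Zfp790 to Zfp146, was mixed, with 5 rises, 3 falls and 5 genes not called and a median log2 fold change of 0.08. Of the 6 genes from Zfp398 to Zfp746, 2 rose, 1 (Zfp956) fell and 3 were not called. The following runs are named because their values were seen. Of the 6 genes from Zfp677 to Zfp948, 4 rose and 0 fell (median 0.69), led by Zfp54, which went from 3.27 ± 0.217 to 8.66 ± 0.571 CPM (SD, n = 3, log2 fold change 1.41). All 5 genes from Zfp560 to Zfp846 rose (0.30 to 0.69), and so did all 4 from Zfp709 to Zfp961 (0.45 to 1.18).

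The run from Zfp667 to Zfp28 went the other way, with 3 falls, 1 gene not called and log2 fold changes of -0.98 to -0.11. In the run from Zfp738 to Zfp273, 4 genes rose and Zfp273 fell (log2 fold change -1.19). Zfp273 had 39, 26 and 32 counts in WT and 7, 11 and 20 after depletion. It could thus enter the test through WT, where it is high, and its fall is given as a description. Clustered members can be near-identical copies, whose shared reads the counting may have split or dropped, so values of single genes within runs are uncertain and neighbours are not independent of each other. How many reads were shared was not tested.

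**Figure D5:**
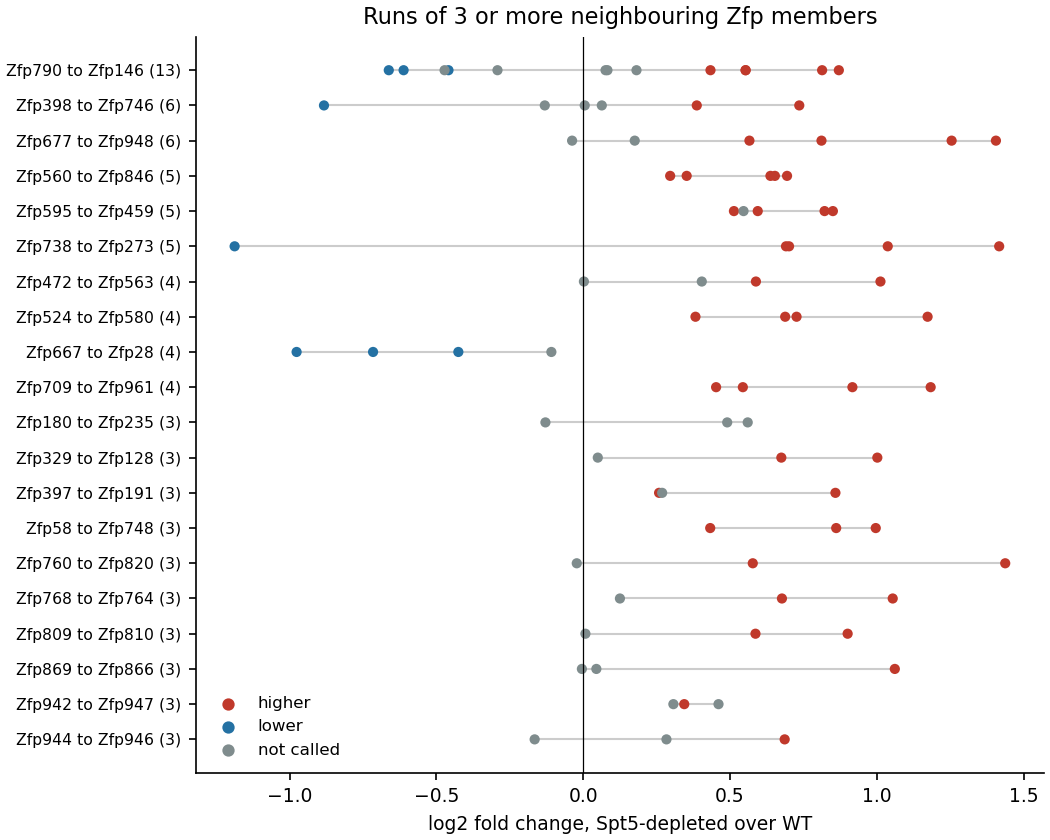
Log2 fold change (Spt5-depleted over WT) of each member in the 20 runs of 3 or more Zfp members that follow each other in protein-coding gene order, labelled by first and last gene and number of genes, coloured by call. Most runs lie right of 0, the run from Zfp667 to Zfp28 lies left of it, and the 13-gene run from Zfp790 to Zfp146 spans both sides.

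In the authors' deposited table, 124 of the 278 members were higher and 35 lower at an adjusted p under 0.05, beside 26.4% and 25.7% of all 14106 genes. The authors' deposited table gave a median log2 fold change of 0.36 for the members and 0.02 for all genes. The sign of the log2 fold change in the authors' deposited table was the same as in edgeR's for 274 of the 278 members.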

How the data were processed

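Poly(A) RNA of 3 WT and 3 Spt5-depleted B cell libraries was extracted with Trizol and prepared with Lexogen's SENSE mRNA-seq kit, per the labels' protocols. The authors deposited raw counts per gene with their own log2 fold changes and adjusted p-values in one table. The submitters' processing notes list featureCounts 1.5.0-p1, TopHat with Bowtie2 2.1.0 beside it, cutadapt 1.10 and DESeq2 1.10.1, with the build mm9. Annotation, strand setting and handling of multi-mapping reads: not given in the sources used here. Table columns named KO were taken as the libraries titled Spt5dep of the same number.

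The deposited counts were fitted in edgeR 4.0.16 (R 4.3.3) with TMM factors, filterByExpr and the robust quasi-likelihood F test, two-sided, on group alone, and p-values were adjusted by Benjamini-Hochberg over all 12024 tested genes. The fit was tested on simulated data. Members and lists were chosen with earlier results of these data known. Named genes were the 8 largest rises and falls among called members whose groups did not overlap and whose mean reached 2 CPM, the 5 most abundant, and members of the role lists. DESeq2 1.42.0, limma-voom (limma 3.58.1), other scaling, filters, thresholds and a replicate block were alternatives. Promoters and gene order are RefSeq's for GRCm38.p6, matched by name, and no coordinates were converted. Replicate libraries differed beyond sampling noise (chi-square per degree of freedom of 6.13 to 31.2).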

Additional observations from a re-analysis of the deposited data

How the results depend on the processing

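The direction of the members' median and the excess of rises over falls held under every alternative run. The number of members higher was 110 to 170 and the number lower was 21 to 41. With library totals alone 25 members were lower and the median log2 fold change was 0.53, while all tested genes moved as well. With a mean of at least 5 CPM, which leaves 195 members, 21 were lower and the median was 0.42, and it was 0.42 with at least 500 counts, which leaves 218 members. Leaving out 1 library at a time gave 117 to 133 members higher, 30 to 37 lower and medians of 0.33 to 0.39, the lowest without Spt5-depleted replicate 1, where the cause was not tested. DESeq2's Wald test called 125 higher and 35 lower.

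Samples with the same replicate number did not deviate together (correlations of 0.026, -0.058 and -0.051), and the fit with the replicate block gave 140 members higher and 39 lower; Zfp592 was not called in it (adjusted p = 0.0729).

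Among the genes given values in the text, the signs that turned were of genes not called. With library totals alone they turned in Zfp106 (0.087), Zfp330 (0.023), Zfp593 (0.0030) and Zfp608 (0.096). Zfp809 gave -0.0014 with no filter, and Zfp932 gave -0.0050 by DESeq2, -0.0048 with its size factors and -0.0081 with no filter. Leaving out 1 library at a time gave -0.16 to 0.048 for Zfp106, -0.15 to 0.16 for Zfp809, -0.00085 to 0.044 for Zfp410, -0.15 to 0.036 for Zfp608 and -0.17 to 0.15 for Zfp932. Low counts limit the members under 2 CPM.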
